A study of Mus musculus with 8 samples.

Results

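The genes of the translation initiation factors and of their direct regulators were taken as all annotated symbols that begin with Eif and a digit from 1 to 6, a rule that also takes in the eIF2 kinases (Eif2ak) and the eIF4E-binding proteins (Eif4ebp). Pseudogenes and Eif2s3y, the Y-linked copy of Eif2s3x, made up 9 matching symbols and were left out. This left 55 of the 53465 genes in the count table, of which 52 had enough counts to be among the 14369 genes tested. Of the other 3 members, Eif4e1b had 0 counts in every sample, which at these depths allows a level of up to 0.119 to 0.233 CPM (library-scaled counts, from 3 counts of the total). Eif4ebp3 had at most 1 count per sample. Eif2c5, a long non-coding RNA that carries an older name of the Argonaute genes and encodes no initiation factor, had at most 3.

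RNA-seq had been performed on bulk samples of mesenchymal stem cells (MSCs), the stromal progenitors of bone, fat and cartilage, from the bones of wild-type male C57BL/6N mice aged 3 to 5 months. In the hypoxia group, 4 samples numbered 1 to 4 were cultured at 2% O2, and in the normoxia group 4 samples with the same numbers were cultured at 21% O2. All cells were first grown at 2% O2 and sorted as CD45-/Ter119-/Sca-1+/CD140a+, and each sorted population was then divided between the oxygen levels, so that the normoxia group carries a shift in oxygen that the hypoxia group does not. The labels place the sort on day 12, and the number of animals behind a sample was not used here.

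Total counts lay between 12898291 and 13433824 per sample except in hypoxia replicate 1, which had 25132141. Of the 8 marker genes of MSCs, all were measured in every sample, with a summed level of 2229 to 3138 CPM in hypoxia and 2155 to 2807 CPM in normoxia. All 6 erythroid markers were at 0 counts apart from 1 count of Alas2 in 1 sample, and the 5 endothelial markers summed to 1.98 to 3.33 CPM over all samples. The 8 blood cell and macrophage markers were not absent, although CD45+ cells had been sorted out. They summed to 473 to 952 CPM in hypoxia and 618 to 1173 CPM in normoxia, with 140 to 263 counts of Ptprc, which encodes CD45. Lyz2 was higher in normoxia and the other 7 blood cell markers did not pass the test, but 4 of the 8 were lower with the replicate number as a block. The part of such cells in the values below was not tested, and fewer cells of a type cannot be told apart from less RNA per cell in bulk samples.

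Initiation of translation starts when eIF2 brings the initiator tRNA to the small ribosomal subunit, with eIF3, eIF1 and eIF1A holding the complex ready. The eIF4F complex, made of the cap-binding protein eIF4E, the scaffold eIF4G and the helicase eIF4A, recruits it to the capped mRNA, and eIF5 and eIF5B close the search for the start codon and join the large subunit. Cells throttle this at a pair of well-known points, the phosphorylation of eIF2 by its kinases, which blocks recycling by eIF2B, and the capture of eIF4E by the eIF4E-binding proteins under control of the mTORC1 kinase. Low oxygen is known to act on both. The data here are mRNA levels and hold no measurement of phosphorylation or of protein.

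Many mRNAs of the translation machinery carry a run of pyrimidines (C or T) at the very start of the transcript, by which mTORC1 controls their translation. The annotated start regions were therefore read for the members, from the RefSeq windows of build GRCm38.p6, which were found for 42 of the tested members. A run of at least 8 pyrimidines that touches the 5 bases on either side of the annotated start was present in 4 members (9.52%) and in 9.3% of the 27025 genes with a window. It was present in 1 of 13 members called higher in normoxia, 2 of 9 called lower and 1 of 20 not called. These 4 windows are shown first because they hold the run. Those of Eif4ebp2, Eif5 and Eif2s2 follow because these 3 members have among the largest changes and lack it at the start read. For each gene 1 RefSeq start was read, which can differ from the gene bounds given below, and no other start was read. Each window has 20 bases before and 10 bases from the annotated start on, 5′ to 3′ on the strand of the gene. Capitals mark the longest pyrimidine run, of any length, that touches the 5 bases on either side of the start.
Eif3f (chr7:108934395-108934424, plus strand): gctcttctgttctaggCTCTCTCTCTTTCT
Eif3l (chr15:79075203-79075232, plus strand): agcaggcgcggagTTCTTCTTCCgctctct
Eif2s3x (chrX:94212642-94212671, minus strand): ggcggctgccgagcaTTTTCCTTTTCTCTC
Eif2b5 (chr16:20498797-20498826, plus strand): gcaTTCCTTCCTCTTTCTCTCCCTgcaact
Eif4ebp2 (chr10:61452660-61452689, minus strand): ggagcggtatcgcagcgggacgaCCgggcg
Eif5 (chr12:111538081-111538110, plus strand): agcgtgagatcgacgTgcatgcgagccaat
Eif2s2 (chr2:154892897-154892926, minus strand): agaagcacgtaaggttggCTTTactgtacg
The run was 15 bases long in Eif3f, 1 more than the window shows, and this gene fell most of all members. In Eif2s3x, which rose, it was 16 bases long, also with 1 base past the window. It was 21 bases long in Eif2b5, which was not called, so a run at the start was seen in members of either direction. The windows reach 250 bases before and 50 after the start, and 8 of 42 members (19%) held CACGTG, the E-box bound by MYC, on either strand, against 7.24% of all genes. The core of the site of the hypoxia-inducible factors, ACGTG (which is part of CACGTG) or GCGTG, was present in 11 of 13 members called higher (84.6%), 7 of 9 called lower (77.8%) and 16 of 20 not called (80%), against 43.8% of all genes. The ACGTG form alone was in 5 of 13 (38.5%), 5 of 9 (55.6%) and 6 of 20 (30%) of them, against 19.7% of all genes. The ATF4 site letters TGATGCAA were in 0 of 42 member windows and in 0.929% of all windows. Base composition was not matched between the members and all genes in these shares.

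To ask how the initiation machinery differs between MSCs kept at low oxygen and MSCs shifted to high oxygen, log2 changes were taken as normoxia minus hypoxia. Of the 52 tested members, 27 (51.9%) changed, 16 higher and 11 lower in normoxia (limma-trend, adjusted p under 0.05). Of all tested genes 34.6% were called, 18.0% higher and 16.5% lower. The members are highly expressed, with a median level of 6.52 log2 CPM against 4.11 for all tested genes. Among the 8956 genes at or above the mean level of the lowest member, 45.3% were called, 23.8% higher and 21.5% lower, against 30.8% and 21.2% of the members. The share of members called was thus near that of genes above this floor, which were not matched further in level. The median change of the members was 0.12 against 0.0049 for all tested genes, and the changes were modest, from -0.58 for Eif3f to 0.73 for Eif3j2. Members of either direction were found, and they are described by role below.

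**Figure D1:**
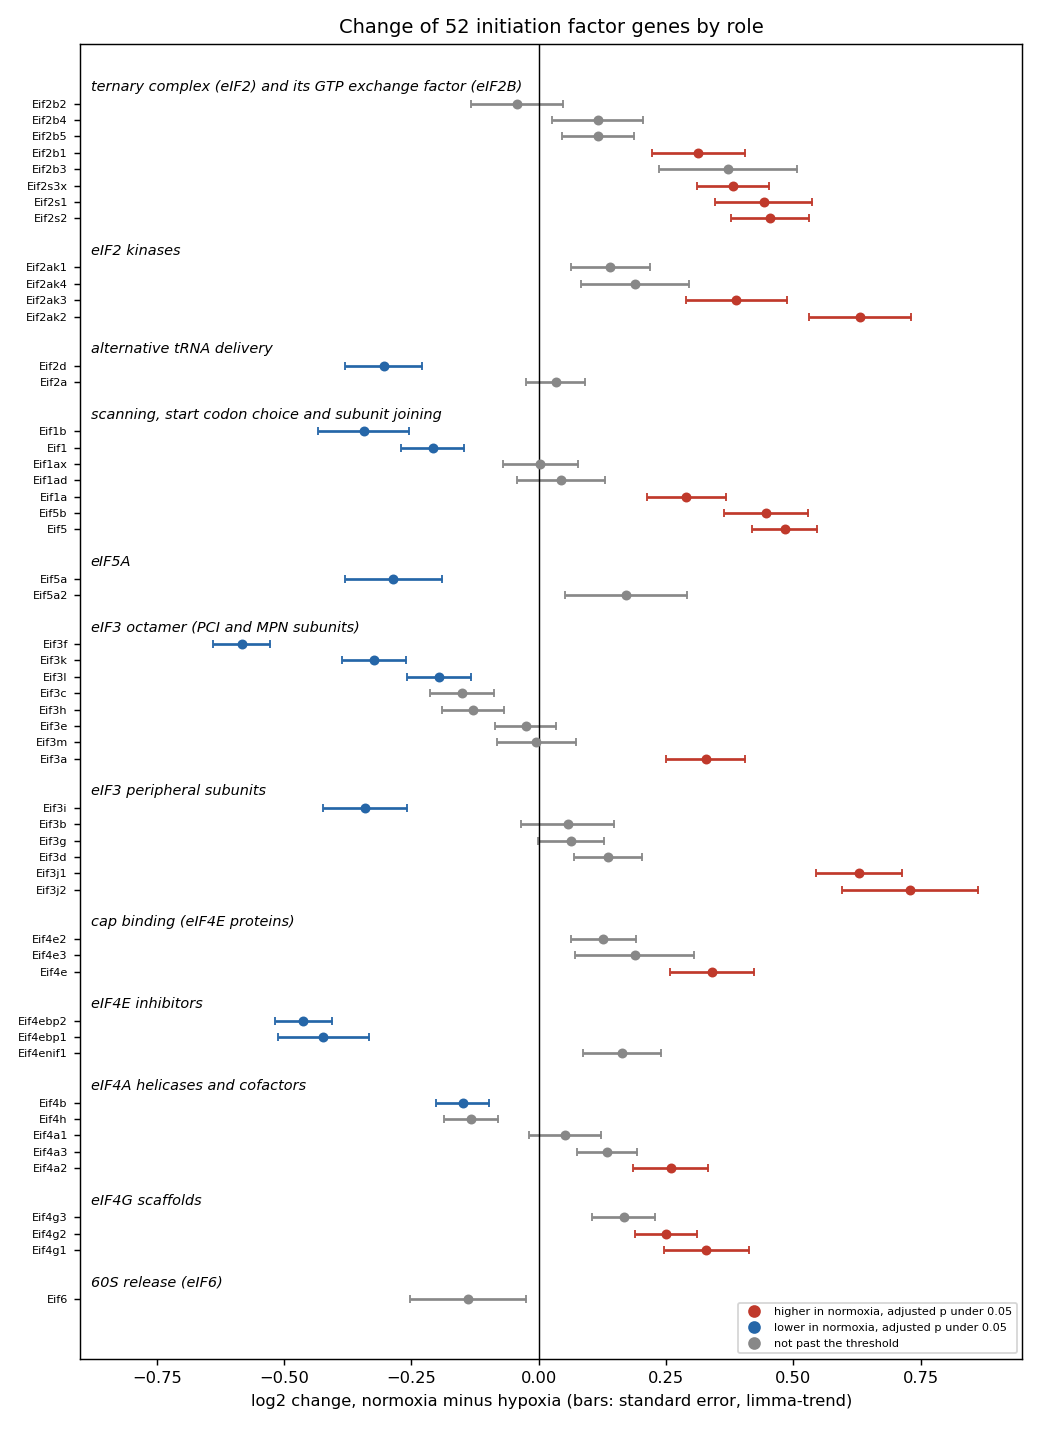
Log2 change (normoxia minus hypoxia, x axis) of the 52 tested genes grouped by role, with the standard error of the limma-trend fit as bars and the call as colour (red higher, blue lower, grey not past the threshold). The 3 eIF2 subunits and the kinases Eif2ak2 and Eif2ak3 lie to the right of 0, Eif4ebp1 and Eif4ebp2 lie to the left, and the eIF3 subunits spread from -0.58 to 0.73.

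The values of the groups did not overlap for 17 members above and 9 below, against 17.1% and 15.5% of all tested genes (32.6% together). The edgeR quasi-likelihood test called 16 members higher and 10 lower, where it called 33.8% of all genes, and DESeq2 called 16 and 12, where it called 34.1%. Scaling by library totals alone, without TMM factors, raised the median change of all genes to 0.089. The split of the members was then 24 higher and 7 lower, where 36.1% of all genes were called. Without hypoxia replicate 1, the deepest sample, 19 members were called higher and 8 lower, where 37.1% of all genes were called. The named genes Eif3f, Eif3i, Eif3k, Eif4ebp1, Eif4ebp2 and Eif2d among the lower, and Eif2s2, Eif2s3x, Eif5, Eif5b, Eif3j1, Eif3j2, Eif2ak2, Eif2ak3 and Eif4g1 among the higher, which make 15 of the 27, kept their calls under each of the 20 alternatives tried.

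All 3 subunits of eIF2, the GTPase that delivers the initiator tRNA, were higher in normoxia. Eif2s2, the beta subunit (ENSMUSG00000074656, chromosome 2, 154871410 to 154892935 on GRCm38), stood at 7.40, 7.13, 7.08 and 7.09 log2 CPM in hypoxia replicates 1 to 4 and at 7.75, 7.60, 7.55 and 7.61 in normoxia. Every normoxia sample lay above every hypoxia sample, with hypoxia replicate 1 standing above the other hypoxia samples. The log2 change was 0.45 ± 0.077 (SE), a level 37.0% higher (limma-trend adjusted p = 0.000992). Eif2s1, the alpha subunit whose phosphorylation halts initiation, rose from 6.02 ± 0.21 to 6.47 ± 0.11 log2 CPM (SD, n = 4 each; limma-trend adjusted p = 0.00385). Eif2s3x, the gamma subunit that binds GTP and the tRNA, rose from 6.82 ± 0.13 to 7.20 ± 0.077 log2 CPM (SD, n = 4 each; limma-trend adjusted p = 0.00158). The groups did not overlap for either gene. The changes of the 3 subunits lay between 0.38 and 0.45, and each was higher in 4 of 4 same-numbered pairs.

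The exchange factor eIF2B, which reloads eIF2 with GTP, gave a less even picture. Eif2b1, its regulatory alpha subunit, rose by 0.31 ± 0.092 (SE), from 4.49 ± 0.17 to 4.80 ± 0.071 log2 CPM (SD, n = 4 each; limma-trend adjusted p = 0.0195). This call was lost without hypoxia replicate 4 and without normoxia replicates 1, 2 or 3 (limma-trend adjusted p of 0.0506 to 0.0569). Eif2b3, the gamma subunit, changed by 0.37, which passed with the replicate block (limma-trend adjusted p = 0.00199) and lay at the threshold without it (0.0515). Without the block it passed when hypoxia replicate 1 or normoxia replicate 4 was left out (limma-trend adjusted p = 0.0168 and 0.0483). Eif2b4 and Eif2b5, the delta and the catalytic epsilon subunit, both changed by 0.12, and Eif2b2, the beta subunit, by -0.04, and none of these passed (limma-trend adjusted p = 0.352, 0.227 and 0.751). Of the 8 genes of eIF2 and eIF2B, 4 were thus higher and 0 lower, with a median change of 0.34.

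The eIF2 kinases each answer a different stress, and of the 4 genes 2 were higher and 0 lower in normoxia. Eif2ak2, which encodes PKR, the kinase activated by double-stranded RNA (ENSMUSG00000024079, chromosome 17, 78852564 to 78882573), stood at 4.66, 5.11, 4.70 and 4.74 log2 CPM in hypoxia replicates 1 to 4 and at 5.35, 5.51, 5.34 and 5.53 in normoxia. Hypoxia replicate 2 was the highest of its group and still lay below all normoxia samples. The change of 0.63 ± 0.10 (SE), or 54.8%, was the largest among the kinases (limma-trend adjusted p = 0.000663). Eif2ak3, which encodes PERK, the kinase of the unfolded protein response (ENSMUSG00000031668, chromosome 6, 70844515 to 70905245), stood at 4.96, 5.02, 4.73 and 4.56 log2 CPM in hypoxia and at 5.19, 5.31, 5.15 and 5.17 in normoxia. These groups did not overlap either, and the change was 0.39 ± 0.099 (SE; limma-trend adjusted p = 0.01). Eif2ak1, the haem-regulated kinase, stood at 5.32, 5.36, 5.07 and 5.17 log2 CPM in hypoxia and at 5.36, 5.41, 5.43 and 5.27 in normoxia. Eif2ak4, which encodes GCN2, the sensor of amino acid shortage, stood at 3.40, 3.61, 3.35 and 3.49 log2 CPM in hypoxia and at 3.53, 3.57, 3.84 and 3.67 in normoxia. Both of these kinases overlapped between the groups and did not pass (0.14 and 0.19, limma-trend adjusted p = 0.183 and 0.192).

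In contrast to the eIF2 subunits, the genes for tRNA delivery without eIF2 were not higher. Eif2d, an unconventional factor that can place tRNA on the ribosome (ENSMUSG00000026427, chromosome 1, 131153181 to 131187658), fell from 5.16 ± 0.075 to 4.85 ± 0.11 log2 CPM with no overlap (SD, n = 4 each; limma-trend adjusted p = 0.0087). Eif2a, a separate protein that is not the alpha subunit of eIF2 despite its symbol, was at 5.61 ± 0.028 and 5.65 ± 0.054 log2 CPM (SD, n = 4 each; limma-trend adjusted p = 0.698). With block and GC correction Eif2a changed by -0.19 and was called lower (limma-trend adjusted p = 0.007).

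Of the 7 genes of scanning and subunit joining, 3 were higher and 2 lower in normoxia. Eif5, which triggers GTP hydrolysis by eIF2 at the start codon (ENSMUSG00000021282, chromosome 12, 111538016 to 111546752), stood at 7.56, 7.49, 7.31 and 7.34 log2 CPM in hypoxia replicates 1 to 4 and at 7.97, 7.90, 7.90 and 7.87 in normoxia. The groups did not overlap, and the change was 0.48 ± 0.064 (SE; limma-trend adjusted p = 0.000247). Eif5b, the GTPase that joins the large subunit (ENSMUSG00000026083, chromosome 1, 37998010 to 38055579), stood at 6.86, 6.71, 6.47 and 6.59 log2 CPM in hypoxia and at 7.25, 7.01, 7.07 and 7.09 in normoxia. It was higher in all 4 pairs and rose by 0.45 ± 0.083 (SE; limma-trend adjusted p = 0.00166).

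The eIF1 genes, whose products keep the scanning complex open until a start codon fits, were lower. Eif1b (ENSMUSG00000006941, chromosome 9, 120492232 to 120495330) stood at 4.63, 4.72, 4.62 and 4.80 log2 CPM in hypoxia and at 4.38, 4.13, 4.43 and 4.45 in normoxia. All normoxia samples lay below all hypoxia samples, with a change of -0.34 ± 0.089 (SE; limma-trend adjusted p = 0.0105, but 0.0853 with block and GC correction). Eif1, the more abundant of the pair per length (672 against 78.8 TPM in hypoxia, where TPM is the length-scaled share of transcripts), fell by 0.21, from 8.67 ± 0.091 to 8.46 ± 0.066 log2 CPM (SD, n = 4 each; limma-trend adjusted p = 0.0204). That call was lost with library totals only and without hypoxia replicate 4 or normoxia replicate 3 (limma-trend adjusted p = 0.158, 0.058 and 0.0667). Of the genes for eIF1A, the partner of eIF1 on the small subunit, Eif1a rose by 0.29 (limma-trend adjusted p = 0.0125) and Eif1ax, its X-linked copy, was at 6.87 in both groups. With block and GC correction Eif1ax changed by -0.23 and was called lower (limma-trend adjusted p = 0.00108). Eif1ad, a relative of eIF1A that acts in ribosome assembly, was not called, with a change of 0.04.

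Eif5a encodes the factor that carries the amino acid hypusine and helps ribosomes past proline-rich stretches, and it had the highest per-length level of all members, at 846 ± 100.2 TPM (SD, n = 4) in hypoxia. It changed by -0.29 ± 0.095 (SE; limma-trend adjusted p = 0.035), and the groups overlapped although all 4 pairs were lower. Leaving out any sample other than hypoxia replicate 2 or normoxia replicate 1 lifted its adjusted p to between 0.0626 and 0.102 (limma-trend). Eif5a2, its paralog at 10.3 TPM in hypoxia, changed by 0.17 and did not pass (limma-trend adjusted p = 0.296).

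**Figure D2:**
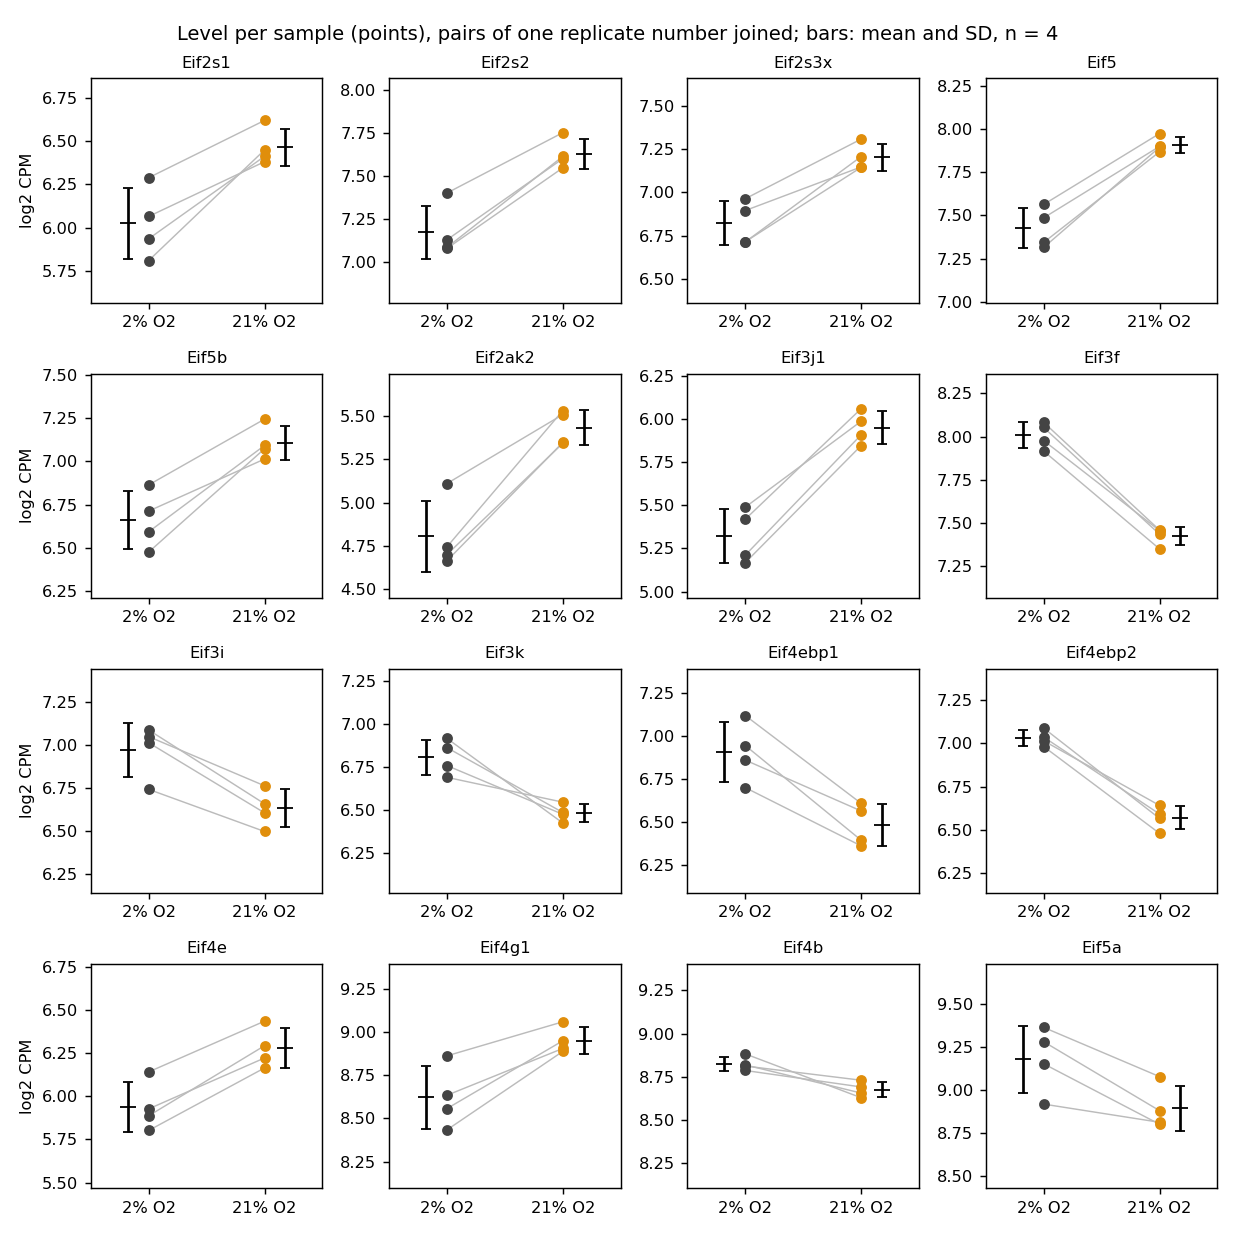
Level per sample (log2 CPM, y axis) of 16 member genes at 2% O2 and 21% O2, with grey lines joining samples of the same number and black bars giving the mean and SD (n = 4). Every panel spans the same range of log2 units, and the groups separate fully in all panels but those of Eif3i and Eif5a.

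The eIF3 complex is the largest initiation factor, a scaffold on which the others assemble, and its subunit genes did not move together. Of the 14 genes, 3 were higher and 4 lower in normoxia. Eif3f, a subunit of the octamer core with an MPN domain (ENSMUSG00000031029, chromosome 7, 108934417 to 108942951), stood at 7.98, 7.92, 8.05 and 8.08 log2 CPM in hypoxia replicates 1 to 4 and at 7.45, 7.35, 7.43 and 7.46 in normoxia. The gap between the groups was several times the spread within either, and the change of -0.58 ± 0.056 (SE), a level 33.3% lower, was the largest fall of any member (limma-trend adjusted p = 6.03e-05). In the same-numbered pairs it lay between -0.625 and -0.522.

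Eif3k, a small subunit of the octamer (ENSMUSG00000053565, chromosome 7, 28971372 to 28981864), stood at 6.76, 6.69, 6.86 and 6.92 log2 CPM in hypoxia and at 6.47, 6.55, 6.49 and 6.42 in normoxia. It fell without overlap by 0.32 ± 0.062 (SE) on the log2 scale (limma-trend adjusted p = 0.00205). Its partner in the complex, Eif3l, changed by -0.20 (limma-trend adjusted p = 0.0304) with overlap, since hypoxia replicate 2 was as low as normoxia, and the call was lost when any of 5 samples was left out (limma-trend adjusted p of 0.058 to 0.0843). Eif3i, a WD-repeat subunit at the periphery (ENSMUSG00000028798, chromosome 4, 129591960 to 129600648), stood at 7.05, 6.74, 7.01 and 7.09 log2 CPM in hypoxia and at 6.76, 6.50, 6.61 and 6.66 in normoxia. Here both samples numbered 2 were the lowest of their group, so the groups overlapped while each pair fell, by an average of 0.34 ± 0.082 (SE) on the log2 scale (limma-trend adjusted p = 0.0073).

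The genes of subunit j, a loosely bound subunit that reaches into the mRNA channel, had the largest rises within eIF3. Eif3j1 (ENSMUSG00000027236, chromosome 2, 122028546 to 122056598) stood at 5.49, 5.42, 5.21 and 5.17 log2 CPM in hypoxia and at 5.99, 6.06, 5.91 and 5.85 in normoxia. Eif3j2, its near-identical copy, stood at 3.04, 2.92, 2.60 and 3.00 log2 CPM in hypoxia and at 3.88, 3.43, 3.58 and 3.59 in normoxia. Neither gene overlapped between the groups, and they rose by 0.63 and 0.73 (SE 0.084 and 0.13; limma-trend adjusted p = 0.000247 and 0.00151). Reads may have been split between the copies, so their values are not independent of each other. Eif3a, the large subunit that nucleates the complex, rose from 8.51 ± 0.16 to 8.84 ± 0.086 log2 CPM (SD, n = 4 each; limma-trend adjusted p = 0.00692).

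The other 7 eIF3 genes were not called. Among them Eif3c changed by -0.15 and passed with the replicate block (limma-trend adjusted p = 0.0123, against 0.0847 without it), and Eif3h changed by -0.13. Eif3b, Eif3d and Eif3g had changes of 0.06 to 0.14, and Eif3e and Eif3m of -0.03 and -0.00. Of the 8 octamer genes 1 was higher and 3 were lower, with a median change of -0.14, and of the 6 peripheral genes 2 were higher and 1 was lower, with a median of 0.10.

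Since the subunits enter the complex together, their levels were also set side by side per length, as TPM over the exons of each gene. In hypoxia Eif3c was highest, at 474 ± 29.5 TPM, followed by Eif3h at 376 ± 26.3, Eif3f at 307 ± 13.5 and Eif3b at 228 ± 29.5 TPM (SD, n = 4 each), and these neighbours were apart by more than their SDs. Eif3a, Eif3k and Eif3l lay within one another's SDs at 143 to 145 TPM, with Eif3e at 133 and Eif3i, Eif3g and Eif3m at 117, 107 and 95.1 TPM below them. Eif3d at 32.3, Eif3j1 at 23.7 and Eif3j2 at 10.5 TPM were the lowest, so that the highest subunit gene stood 31.5-fold above the lowest in the mean over all samples. That lowest gene is Eif3j2, whose reads may have been split with Eif3j1. Over all samples Eif3j1 was at 31.8 TPM and Eif3c at 470 TPM. In normoxia Eif3f stood at 224 ± 7.43 TPM, below Eif3b at 258 ± 17.2, and so moved from rank 3 to rank 4. Eif3k moved from rank 6 to rank 8, and Eif3j1 passed Eif3d at 40.0 against 38.8 TPM, a difference within their SDs. TPM shares are scaled differently from the tested log2 CPM and are used here only for the order of levels within a group. That order and the spread can depend on the length used. All exons together span 4968 bases in Eif3d against 2546 in its longest transcript, and 3511 against 3383 in Eif3c.

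**Figure D3:**
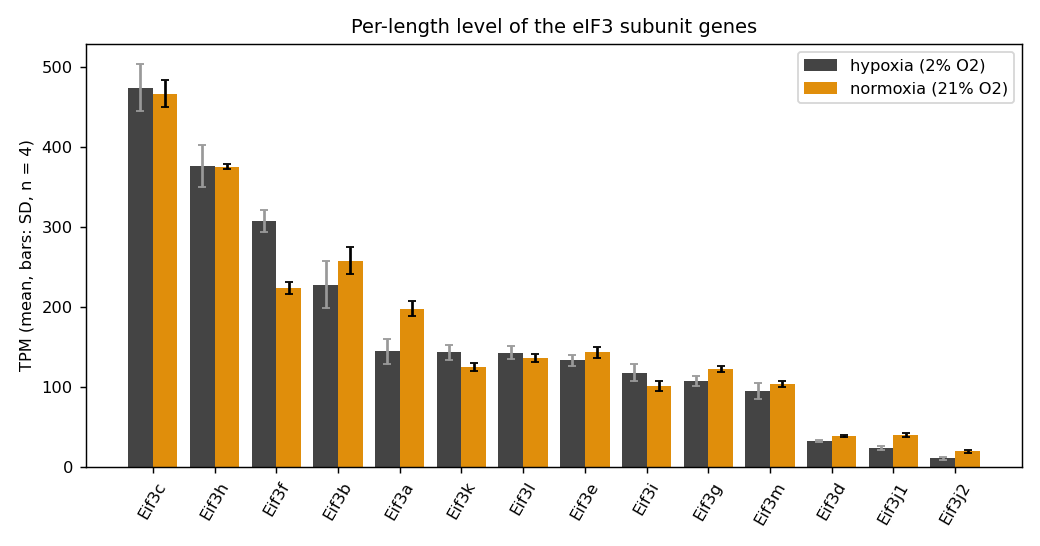
Per-length level (TPM, y axis, from 0) of the 14 eIF3 subunit genes in hypoxia (dark) and normoxia (orange), as means with SD (n = 4 each), ordered by the hypoxia level. Eif3c and Eif3h lead in both groups, Eif3f drops below Eif3b in normoxia, and the j subunit genes stay among the lowest 3.

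At the cap, the gene of the cap-binding protein was higher and those of 2 of its inhibitors were lower, although the rise of Eif4e did not pass once GC content and length were corrected (limma-trend adjusted p = 0.326 unblocked and 0.101 blocked). Eif4e (ENSMUSG00000028156, chromosome 3, 138526179 to 138559696) stood at 6.14, 5.89, 5.80 and 5.93 log2 CPM in hypoxia replicates 1 to 4 and at 6.44, 6.29, 6.16 and 6.22 in normoxia. The lowest normoxia sample lay just above the highest hypoxia sample, and the change was 0.34 ± 0.083 (SE; limma-trend adjusted p = 0.00761). Eif4e2, which encodes 4EHP, a cap-binding relative known from translation at low oxygen (ENSMUSG00000026254, chromosome 1, 87213914 to 87240488), stood at 6.48, 6.25, 6.33 and 6.27 log2 CPM in hypoxia and at 6.47, 6.43, 6.52 and 6.43 in normoxia. The highest hypoxia sample overlapped the normoxia samples, and its change of 0.13 did not pass (limma-trend adjusted p = 0.141). Eif4e3, another cap-binding relative at 12.1 TPM in hypoxia, changed by 0.19 and did not pass either (limma-trend adjusted p = 0.238).

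Eif4ebp1, the best-known mTORC1 target that binds eIF4E when unphosphorylated (ENSMUSG00000031490, chromosome 8, 27260329 to 27276674), stood at 7.12, 6.70, 6.94 and 6.86 log2 CPM in hypoxia and at 6.61, 6.36, 6.39 and 6.56 in normoxia. Eif4ebp2, its paralog (ENSMUSG00000020091, chromosome 10, 61428491 to 61452661), stood at 7.04, 6.98, 7.09 and 7.01 log2 CPM in hypoxia and at 6.59, 6.48, 6.56 and 6.64 in normoxia. Neither gene overlapped between the groups, and Eif4ebp2 was the tighter of the pair within each group. They fell by 0.42 and 0.46 on the log2 scale (SE 0.089 and 0.056), or by 25.4% and 27.4% (limma-trend adjusted p = 0.0033 and 0.000148). The other binding-protein gene, Eif4ebp3, had too few counts to be tested. Eif4enif1, which encodes the eIF4E transporter 4E-T, changed by 0.16 and did not pass (limma-trend adjusted p = 0.117).

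A ratio of counts within a library does not depend on how libraries are scaled, and 5 ratios between members were compared, with all 70 assignments of the 8 samples enumerated in a two-sided exact permutation test. The ratio of Eif4ebp1 to Eif4e counts was 1.76 to 2.20 in hypoxia and 1.05 to 1.27 in normoxia, with no overlap. Its mean log2 value fell by 0.76, and in each of the 4 pairs by 0.590 to 0.912 (exact permutation p = 0.0286, the smallest that 70 assignments allow, and 0.143 adjusted over the 5 ratios). It thus did not pass after adjustment, in a design where 0.0286 is the floor for unpaired assignments. These assignments ignore the same-numbered pairs, and a sign-flip test over the 4 pairs allows no p below 0.125. The ratio is of reads and not per length, so its change can be read and its size cannot. It was not corrected for GC content and length, and the rise of Eif4e within it did not pass with that correction. The ratio of Eif4ebp2 to Eif4ebp1 changed by -0.04 on the log2 scale and went up in 2 of 4 pairs (exact permutation p = 0.686), and leaving out hypoxia replicate 2 turned its sign. For Eif4e2 to Eif4e the change was -0.21, lower in all 4 pairs (exact permutation p = 0.0857, 0.19 adjusted).

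The helicase eIF4A unwinds the mRNA leader, and its genes differed. Eif4a1 (ENSMUSG00000059796, chromosome 11, 69666936 to 69672423), the main helicase gene, stood at 9.13, 8.82, 9.02 and 8.98 log2 CPM in hypoxia and at 9.10, 8.99, 9.09 and 8.98 in normoxia. Eif4a2, its paralog (ENSMUSG00000022884, chromosome 16, 23107444 to 23114136), stood at 7.48, 7.75, 7.51 and 7.75 log2 CPM in hypoxia and at 7.85, 7.97, 7.88 and 7.83 in normoxia. The Eif4a1 values overlapped and did not pass (0.05, limma-trend adjusted p = 0.61), whereas Eif4a2 rose without overlap by 0.26 ± 0.073 (SE; limma-trend adjusted p = 0.0166). The Eif4a2 call was lost without hypoxia replicate 3 or normoxia replicate 2 (limma-trend adjusted p = 0.0575 and 0.0679). The ratio of Eif4a2 to Eif4a1 was higher in 4 of 4 pairs, by 0.053 to 0.401 on the log2 scale, and its mean change of 0.21 did not pass (exact permutation p = 0.229, 0.286 adjusted). A processed pseudogene of this gene family had 59 to 158 counts per sample, and reads may have been split with it.

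Eif4a3, a helicase of the exon junction complex, was at 6.15 ± 0.064 and 6.28 ± 0.064 log2 CPM (SD, n = 4 each; limma-trend adjusted p = 0.101). Its groups did not overlap. With the GC and length correction it was called higher (0.28, limma-trend adjusted p = 0.0029 unblocked and 4.88e-05 blocked). Eif4b, the cofactor that stimulates eIF4A, fell by 0.15 ± 0.052 (SE) with no overlap (limma-trend adjusted p = 0.0434). This was the weakest call of the family, lost with edgeR and when any sample but normoxia replicate 4 was left out. Eif4h, a cofactor related to Eif4b, changed by -0.13 and passed with the replicate block (limma-trend adjusted p = 0.0277, against 0.0729 without it). With the GC and length correction the change of Eif4h was -0.0049 and did not pass (limma-trend adjusted p = 0.957 unblocked and 0.94 blocked).

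All 3 eIF4G scaffold genes lay above hypoxia in every normoxia sample, and 2 of them passed. Eif4g1, the main scaffold of eIF4F (ENSMUSG00000045983, chromosome 16, 20668313 to 20692884), stood at 8.86, 8.63, 8.56 and 8.43 log2 CPM in hypoxia and at 9.06, 8.91, 8.95 and 8.89 in normoxia. Hypoxia replicate 1 came close to the normoxia samples without reaching them, and the change was 0.33 ± 0.084 (SE; limma-trend adjusted p = 0.0097). Eif4g3, its paralog (ENSMUSG00000028760, chromosome 4, 137993022 to 138208508), stood at 6.71, 6.76, 6.63 and 6.54 log2 CPM in hypoxia and at 6.83, 6.77, 6.90 and 6.82 in normoxia. The second hypoxia and the second normoxia sample were nearly equal, and the change of 0.17 did not pass without the replicate block but passed with it (limma-trend adjusted p = 0.0552 and 0.0193). It also passed with the GC and length correction (0.21, limma-trend adjusted p = 0.0134) and when hypoxia replicate 1 or 2 was left out (limma-trend adjusted p = 0.0456 and 0.0276). Eif4g2, which encodes DAP5, a scaffold that works without eIF4E, rose from 9.73 ± 0.076 to 9.98 ± 0.046 log2 CPM (SD, n = 4 each; limma-trend adjusted p = 0.00786). The ratio of Eif4g3 to Eif4g1 changed by -0.16, lower in all 4 pairs (exact permutation p = 0.114, 0.19 adjusted).

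Eif6, which keeps the large subunit from joining too early, varied more between replicates than between oxygen levels, at 6.43 ± 0.20 and 6.29 ± 0.22 log2 CPM (SD, n = 4 each). It fell in all 4 pairs, by 0.091 to 0.206, and passed with the replicate block (limma-trend adjusted p = 0.0417, against 0.383 without it). With the GC and length correction its change turned to 0.08 and did not pass (limma-trend adjusted p = 0.622 unblocked and 0.188 blocked). With the block all 27 calls were kept in direction and 5 were added (Eif3c, Eif4h, Eif6, Eif2b3 and Eif4g3), making 18 higher and 14 lower, where 46.0% of all genes were called, 23.3% higher and 22.7% lower.

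The members called higher and lower also differed in base composition. The median GC content of the longest transcript was 42.9% in the 16 higher members, 50.9% in the 11 lower ones and 50.1% in those not called, against 49.7% in all tested genes. Spearman's rho between change and GC content was -0.45 over the 52 members and -0.39 over all tested genes, given as a description since the genes share the same 8 libraries. With a correction of each sample for GC content and length and the replicate block together, 22 of the 27 calls were kept, 0 reversed, 5 were lost and 13 were added, making 20 higher and 15 lower, where 43.2% of all genes were called. The lost calls were those of Eif4e (0.11, limma-trend adjusted p = 0.101), Eif4g2 (0.08, adjusted p = 0.122), Eif1a (0.07, adjusted p = 0.206), Eif4a2 (0.05, adjusted p = 0.425) and Eif1b (-0.17, adjusted p = 0.0853). The 3 eIF2 subunits kept their calls at smaller changes of 0.21 to 0.22. With the correction but no block, the calls of Eif2s1, Eif3a, Eif5a and Eif1 were lost as well (limma-trend adjusted p = 0.0948, 0.108, 0.36 and 0.0877).

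The changes of Eif3f, Eif4ebp1 and Eif4ebp2 were -0.58, -0.45 and -0.42 in that fit, close to those without the correction, and Eif4g1 and Eif2ak3 were at 0.41 and 0.39. Eif3e, the member with the lowest GC content, went from -0.03 to -0.27 and was then called lower (limma-trend adjusted p = 8.06e-06), and Eif3g, with a high GC content, went from 0.06 to 0.27 and was called higher (limma-trend adjusted p = 0.000107). Of the 8 octamer genes 6 were then lower and 1 higher, and of the 6 peripheral genes 5 were higher and 1 lower. Of the 8 eIF2 and eIF2B genes 7 were then higher and 0 lower. Real differences that happen to track base composition or length are taken away by the correction too, and how large they were was not tested.

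**Figure D4:**
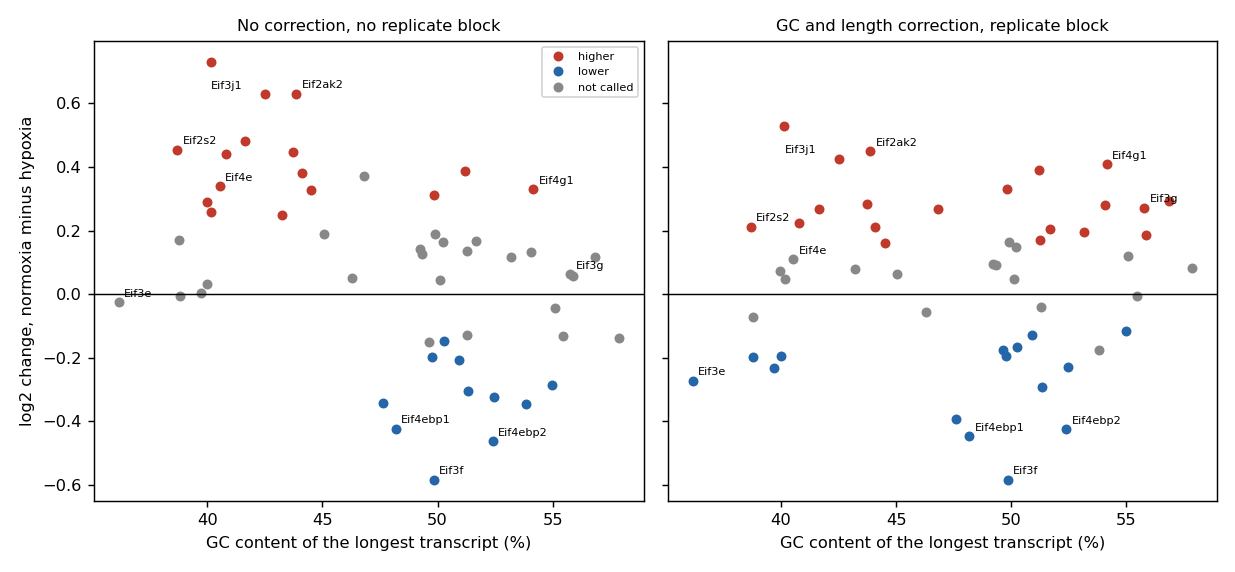
Log2 change (normoxia minus hypoxia, y axis) of the 52 members against the GC content of their longest transcript (x axis, %), without correction (left) and with the replicate block plus GC and length correction (right), coloured by call in each fit (red higher, blue lower, grey not called). Members under 45% GC lie mostly above 0 on the left and less so on the right, while Eif3f, Eif4ebp1 and Eif4ebp2 hold their place.

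The genes around the initiation factors were read from 4 lists of 47 genes in all, each of which was tested. The lists were chosen with earlier results of these data known, so their share of calls is a description and not a test. Of these, 17 were higher and 16 lower in normoxia (70.2% against 34.6% of all tested genes, both directions together, and 45.3% of the genes at or above the level of the lowest initiation factor gene), with a median change of 0.06. With the replicate block 19 were higher and 18 lower, where 46.0% of all genes were called. The block added the calls of Denr and Eef1e1 as higher and of Deptor and Paip2b as lower. With the block and GC correction 17 were higher and 13 lower, where 43.2% of all genes were called. The eIF2 branch held genes of both kinds, with 4 of 12 higher and 5 lower. Ppp1r15a, the stress-induced phosphatase subunit that reverses eIF2 phosphorylation (GADD34), rose by 0.43 (limma-trend adjusted p = 0.00583). Dnajc3, which encodes P58IPK, an inhibitor of PKR and PERK, rose by 0.55 (limma-trend adjusted p = 0.000463), and Impact, an inhibitor of GCN2 activation, by 0.72 (limma-trend adjusted p = 0.000253). Both genes thus rose beside the kinases Eif2ak2 and Eif2ak3.

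Atf4, the transcription factor whose translation increases when eIF2 is phosphorylated, was at 7.98, 7.72, 7.78 and 7.81 log2 CPM in hypoxia and at 7.89, 7.88, 7.97 and 7.92 in normoxia. The groups overlapped and the change of 0.09 did not pass (limma-trend adjusted p = 0.28), although it was 0.25 and passed in the fit with block and GC correction (limma-trend adjusted p = 7.5e-05). Of the genes in the list that ATF4 is known to induce, Trib3, Asns, Chac1 and Sesn2 were lower in normoxia, Ppp1r15a was higher and Ddit3 was not called. Trib3, a pseudokinase gene, stood at 7.10, 7.01, 7.15 and 7.05 log2 CPM in hypoxia and at 6.38, 6.38, 6.38 and 6.45 in normoxia, a fall without overlap of 0.68 on the log2 scale (limma-trend adjusted p = 2.74e-05). Asns, which encodes asparagine synthetase, and Chac1, which encodes an enzyme of glutathione breakdown, both fell by 0.41 (limma-trend adjusted p = 0.00416 and 0.00141), although Chac1 did not pass with the GC correction alone (limma-trend adjusted p = 0.0788). Sesn2, an inhibitor of mTORC1, fell by 0.27 (limma-trend adjusted p = 0.00683, but 0.0777 in the fit with block and GC correction). Ddit3, which encodes CHOP, was at 0.09 (limma-trend adjusted p = 0.429).

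Of the 16 genes of the mTORC1 and MNK inputs to eIF4F, 5 were higher and 5 lower. Mtor itself rose by 0.41 (limma-trend adjusted p = 0.00191) and Rps6kb1, which encodes S6 kinase, by 0.45 (limma-trend adjusted p = 0.00156). The genes of the tuberous sclerosis complex, the brake on mTORC1, divided, with Tsc1 at 0.43 and Tsc2 at -0.34 (limma-trend adjusted p = 0.00707 and 0.000524). Ddit4 (REDD1), a hypoxia-induced inhibitor of mTORC1, fell by 0.21, and Mknk2, a kinase of eIF4E, changed by -0.25 with overlap (limma-trend adjusted p = 0.0113 and 0.0316). In the fit with block and GC correction, neither passed (limma-trend adjusted p = 0.949 and 0.407). Pdcd4, an inhibitor of eIF4A, rose by 0.35 (limma-trend adjusted p = 0.00747).

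In the list of poly(A) tail binding and of helicases at the small subunit, 6 of 10 were higher and 2 lower. With block and GC correction 4 were higher and 3 lower, where 43.2% of all genes were called. Paip1, Paip2 and Mcts1, called higher without it, did not pass in that fit (limma-trend adjusted p = 0.56, 0.753 and 0.144). Abce1, the recycling factor that splits ribosomes, and Dhx29, a helicase for structured leaders, both rose by 0.55 (limma-trend adjusted p = 0.000463 and 0.00101), and Ddx3x, another helicase, rose by 0.42 (limma-trend adjusted p = 0.000919). The poly(A)-binding protein genes Pabpc1 and Pabpc4 fell by 0.30 and 0.43 (limma-trend adjusted p = 0.00693 and 0.000375). Of the 9 elongation and termination genes, 2 were higher and 4 lower. Eef2, which moves the ribosome along the mRNA, fell by 0.47, and Eef2k, the kinase that inhibits its product, fell by 0.54 (limma-trend adjusted p = 0.000552 and 0.000111). The termination factor genes Etf1 and Gspt1 rose by 0.42 and 0.34 (limma-trend adjusted p = 0.000933 and 0.00603). Within the list and without block or correction, the 4 lower genes were thus elongation factor genes and the kinase Eef2k, and the 2 higher ones were both for termination. This division did not hold in other fits. Eef1e1 was called higher with the block (0.33, limma-trend adjusted p = 0.00534). Eef1g was called higher with block and GC correction (0.15, limma-trend adjusted p = 0.00525). Gspt1 did not pass with the GC correction alone (limma-trend adjusted p = 0.0627).

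**Figure D5:**
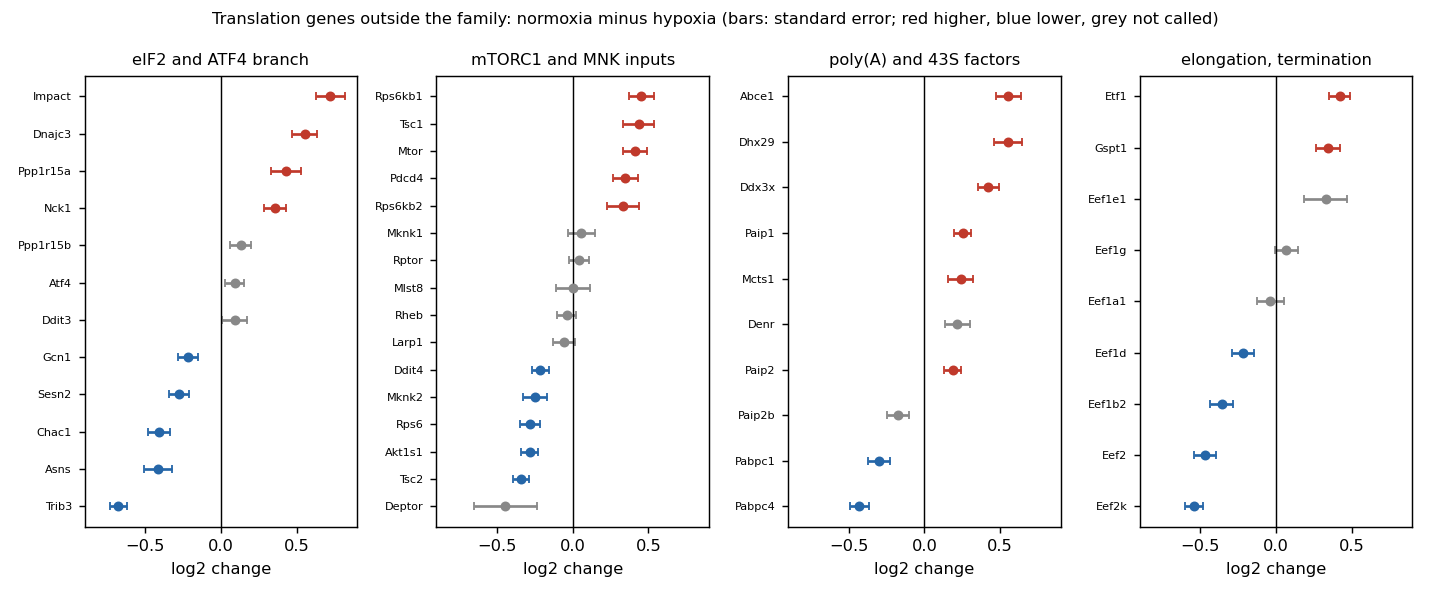
Log2 change (normoxia minus hypoxia, x axis) of the 47 genes of 4 lists around the initiation factors, with standard errors of the limma-trend fit as bars and the call as colour (red higher, blue lower, grey not called). Each list holds genes on both sides of 0, from Trib3 at -0.68 to Impact at 0.72.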

How the data were processed

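RNA was measured in 4 hypoxia and 4 normoxia samples. The authors prepared total RNA libraries, sequenced single-end reads, processed them with zUMIs, STAR and featureCounts on mm10 (GRCm38, as in the submitters' processing notes) with Ensembl annotation, and deposited raw counts per gene, which are whole numbers and not normalized. Strand and multi-mapping settings are not given in the sources used here, so near-identical copies (Eif3j1 and Eif3j2, Eif1, Eif4a1 and their pseudogenes) and overlapping genes are uncertain. Symbols, positions, exon lengths and GC content came from GENCODE M21 (GRCm38).

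As in the study's methods, genes were filtered with filterByExpr (edgeR 4.0.16, minimum count 5), which kept 99.93% of the counts, and compared with limma-trend (limma 3.58.1, R 4.3.3, Benjamini-Hochberg over all tested genes, threshold 0.05). TMM factors and a prior count of 3 were used for log2 CPM. Fold changes on this scale understate those of low genes. The edgeR quasi-likelihood test, DESeq2 1.42.0, limma-voom, other scalings, filters and prior counts, a GC and length correction (natural splines with 5 degrees of freedom per property) and leaving out each sample were alternatives. The methods were tested on simulated data.

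One sorted population was divided between oxygen levels, and the deviations of same-numbered samples from their group means correlated across genes (0.47, 0.28, 0.25 and 0.17 for numbers 1 to 4), so the numbers pair the samples. A fit with the number as a block is given where it changes the call of a member. The floor of 3 counts covers counting error only. No pair of replicates agreed within sampling noise (lowest chi-square per degree of freedom 3.67).

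The members, roles, pathway and marker lists were chosen with earlier results of these data known. Values in every sample are given for the 6 largest rises and the 6 largest falls among called members, for both genes of each ratio, and for the eIF2 kinase and eIF4E-binding protein genes. Values in every sample of Atf4 and Trib3 were added after they were seen.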

Additional observations from a re-analysis of the deposited data

Results flagged for a closer look

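Values of the 4 samples of each group were screened for 1 sample that stands apart from the rest. The measure was the distance from the extreme sample to the next, as a share of the whole range, and Dixon's critical value for 4 samples was the limit. Among 116 such sets 6 passed it, where chance gives 5.8 (5%, about 1 in 20). Hypoxia replicate 1 had a total of 25132141 counts, while the other hypoxia samples had 12929564 to 13219647 (ratio 0.976). Eif2s2 was highest in the same sample, at 7.40 against 7.08 to 7.13 log2 CPM (ratio 0.844). In hypoxia replicate 2, Eif1ax was lowest at 6.66 against 6.92 to 6.95 log2 CPM (ratio 0.891), and Eif3l was lowest at 7.08 against 7.27 to 7.30 log2 CPM (ratio 0.851). Eif1ax was highest in normoxia replicate 1, at 7.00 against 6.82 to 6.84 log2 CPM (ratio 0.885). The log2 ratio of Eif4e2 to Eif4e was highest in hypoxia replicate 3, at 0.53 against 0.34 to 0.37 (ratio 0.866).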

How the results depend on the processing

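Across the 20 alternatives, 0 of the 27 called members reversed and 15 kept their call in each. With all samples kept, 24 to 35 members were called (32 with the replicate block, 35 with GC and length correction added). Of all tested genes, 17.8% to 46.0% were called in those fits. When 1 sample was left out, 22 to 28 members and 26.3% to 37.1% of all tested genes were called. Of the 47 genes around the members, 27 to 35 were called when 1 sample was left out. With the replicate block, 19 of them were higher and 18 lower. The median change of 0.12 was 0.21 with library totals only, 0.087 with the GC and length correction, with or without the block, and 0.088 to 0.15 when 1 sample was left out, and why it moved was not tested further. Without 1 sample, the log2 ratio changes lay between 0.11 and 0.31 for Eif4a2 to Eif4a1, -0.23 and -0.13 for Eif4g3 to Eif4g1, -0.27 and -0.16 for Eif4e2 to Eif4e, -0.81 and -0.70 for Eif4ebp1 to Eif4e, and -0.11 and 0.013 for Eif4ebp2 to Eif4ebp1, the last reversing without hypoxia replicate 2.

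The members whose sign turned were all uncalled in the fit without block or correction. Eif1ax turned to -0.00073 with edgeR, -0.011 with DESeq2 and -0.0070 with RLE factors, and library totals turned Eif3m to 0.083, Eif2b2 to 0.045 and Eif3e to 0.063. The GC and length correction, with or without the replicate block, turned Eif6 to 0.082, Eif1ax to -0.23, Eif5a2 to -0.071, Eif2a to -0.19, Eif4a1 to -0.057 and Eif2b2 to 0.12. Of these, Eif1ax and Eif2a were called lower with the correction and block (limma-trend adjusted p = 0.00108 and 0.007). Without the block Eif2a passed and Eif1ax did not (limma-trend adjusted p = 0.0215 and 0.0614). Leaving out 1 sample turned members in some fits, with ranges of -0.065 to 0.031 for Eif1ax, -0.0035 to 0.10 for Eif4a1, -0.055 to 0.065 for Eif3m, -0.068 to 0.011 for Eif3e and -0.0044 to 0.14 for Eif3b. The cause was not tested. The calls of Eif4b, Eif5a, Eif3l, Eif1, Eif2b1 and Eif4a2 were each lost in at least 1 fit that left out a sample. Depth limits what can be said of Eif4e1b, Eif4ebp3 and Eif2c5, which at 3 counts a sample reach 0.119 to 0.233 CPM.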
